A study of Mus musculus with 57 samples.

Results

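Promoters that carried the active mark H3K4me3 and the repressive mark H3K27me3 in both brain cortex and gastrocnemius muscle were collected from the peak calls of 57 chromatin immunoprecipitation libraries. An autosomal RefSeq gene was included when a peak overlapped its most upstream transcription start site (TSS), within 1 kb, for H3K4me3 in all 9 cortex and all 10 gastrocnemius libraries and for H3K27me3 in at least 8 libraries of each tissue. The rule kept 1098 of 24963 genes (4.40%). They are called bivalent promoters below, and H3K4me3 and H3K27me3 at the TSS are therefore the values they were chosen by, and not a finding.

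The study profiled H3K4me3, H3K27ac and H3K27me3 in PSAPP mice, a double transgenic model of Alzheimer's disease that expresses a mutant chimeric mouse and human amyloid precursor protein and mutant human presenilin 1, taken at 13 months of age. Each of the 3 marks has 9 cortex and 10 gastrocnemius libraries from 10 animals, of which 9 gave both tissues. All animals were labelled as transgenic, with no wild-type group beside them, and were fed chow and later, when housed singly, a modified AIN-93 diet before tissues were snap-frozen. The study used male and female mice, so each tissue group pools both sexes. The labels used here give no sex for a library, and sex was not compared.

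Bivalent chromatin is a state in which a mark of active promoters and a mark of Polycomb repression are found at the same CpG-rich promoter. H3K4me3 is set by Trithorax-type methyltransferases, and H3K27me3 by the Polycomb repressive complex that contains Ezh2 or Ezh1. The state is best known from embryonic stem cells, where it marks genes of developmental regulators that are silent but can be switched on, and many of these genes later keep only the mark that fits the lineage. H3K27ac sits on the same lysine as H3K27me3 and marks active promoters and enhancers. In pieces of whole tissue, both marks on the same chromatin and each mark in a different cell type cannot be told apart.

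To show what these promoters look like, the bases before the TSS of 1 gene from each of 6 gene families are printed 5′ to 3′ on the gene's strand, from build mm10 with RefSeq annotation, with every CG in capitals. Each is the gene of its family with the densest H3K27me3 among those whose sequence can be given here, which for PAX and GATA is Gata2, after the denser Gata6. Stretches that are annotated as exon were left out, so the window of 250 bp is shorter for Lhx1, Wnt10b and Kcnh3. For Wnt10b and Kcnh3 the printed stretch does not reach the TSS, and its nearest base lies 57 and 76 bases before it. Hoxd9 (chr2:74697513-74697762, plus strand) is a Hox cluster gene, Lhx1 (chr11:84525535-84525659, minus strand) a LIM homeobox factor, Gata2 (chr6:88193641-88193890, plus strand) a zinc finger factor of blood and neural development, Hes2 (chr4:152158617-152158866, plus strand) a bHLH repressor, Wnt10b (chr15:98778207-98778400, minus strand) a secreted Wnt ligand and Kcnh3 (chr15:99224342-99224516, plus strand) a neuronal potassium channel.
Hoxd9: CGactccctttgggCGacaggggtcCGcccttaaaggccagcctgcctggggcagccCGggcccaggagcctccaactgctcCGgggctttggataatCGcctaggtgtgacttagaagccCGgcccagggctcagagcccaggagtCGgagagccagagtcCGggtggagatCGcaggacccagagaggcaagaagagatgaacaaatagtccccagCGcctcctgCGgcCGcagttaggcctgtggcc
Lhx1: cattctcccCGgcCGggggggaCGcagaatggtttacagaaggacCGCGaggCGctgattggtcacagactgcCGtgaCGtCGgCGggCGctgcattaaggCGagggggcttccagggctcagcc
Gata2: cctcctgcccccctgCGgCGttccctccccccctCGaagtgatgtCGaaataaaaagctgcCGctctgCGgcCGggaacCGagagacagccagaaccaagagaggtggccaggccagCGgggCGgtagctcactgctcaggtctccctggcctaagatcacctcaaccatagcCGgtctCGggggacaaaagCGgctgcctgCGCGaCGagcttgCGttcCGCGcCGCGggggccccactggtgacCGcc
Hes2: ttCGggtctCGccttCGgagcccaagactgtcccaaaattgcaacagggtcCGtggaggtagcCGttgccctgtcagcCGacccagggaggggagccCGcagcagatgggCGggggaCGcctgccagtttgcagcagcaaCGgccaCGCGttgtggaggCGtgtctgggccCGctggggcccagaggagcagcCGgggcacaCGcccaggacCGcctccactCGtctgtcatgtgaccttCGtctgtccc
Wnt10b: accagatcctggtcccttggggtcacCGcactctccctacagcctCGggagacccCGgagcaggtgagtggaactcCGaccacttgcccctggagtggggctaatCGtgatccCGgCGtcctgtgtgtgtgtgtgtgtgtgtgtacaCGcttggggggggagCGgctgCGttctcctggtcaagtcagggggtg
Kcnh3: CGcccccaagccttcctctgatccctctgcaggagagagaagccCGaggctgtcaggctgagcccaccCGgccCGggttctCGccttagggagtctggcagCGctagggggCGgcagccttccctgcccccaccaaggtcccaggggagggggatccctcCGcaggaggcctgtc

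Dense CG pairs were shared by most of the group. In the 250 bp before the TSS the median bivalent promoter held 15 CG (quartiles 9 and 23), against 8 (3 and 18) over all autosomal genes, and 0.455% held none against 6.97%. Within 1 kb of sequence around the TSS the median GC content was 61.5% (54.6% over all genes), and 55.4% were CpG-rich by GC content and observed over expected CpG, against 34.4% over all genes. That share was 61.9% at promoters bivalent in gastrocnemius only and 41.8% at those bivalent in cortex only. It was 65.4% at the 9109 promoters with H3K4me3 in all 19 libraries and H3K27me3 in none, but 1.80% at the 889 promoters with H3K27me3 in both tissues and H3K4me3 in none. Noncoding transcripts made up 13.3% of the bivalent genes and 23.7% of all genes.

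Among the bivalent promoters, 846 had an H3K27me3 peak in all 19 libraries, 168 in 18, 75 in 17 and 9 in 16. The H3K27me3 density of a promoter was averaged over all libraries of a tissue, and a library without a peak counted as no reads. A lower density at the limit of the rule is therefore partly set by the number of libraries with a peak. Whether density also fell within the libraries that had a peak was not tested. Promoters in 8 of 9 cortex libraries had a median of 3.46 RPKM (reads per kb of peak, scaled to the reads of the library in peaks) in cortex, against 2.90 for the 86 promoters left out because only 7 cortex libraries had a peak. In gastrocnemius the values were 3.24 for promoters in 8 of 10 libraries and 2.75 for the 50 left out with 7. Several neighbours count more than once, since 158 bivalent TSSs lay within 1 kb of another one and often shared its peaks.

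Total reads in autosomal peaks ranged from 9.03 to 18.6 M for H3K4me3, from 3.90 to 27 M for H3K27ac and from 2.99 to 18.2 M for H3K27me3. Of the tissue markers, 9 of 10 cortex genes had H3K27ac in all 9 cortex libraries (Aqp4 in 0) and all 10 muscle genes had it in all 10 gastrocnemius libraries. However, 10 of the 20 marker genes also had H3K27ac in the other tissue. These were 4 cortex genes (Mbp and Slc17a7 in 10, Camk2a in 9 and Gfap in 7 of 10 gastrocnemius libraries) and 6 muscle genes (Acta1, Casq1 and Mylpf in 9, Pvalb in 8, Tnnt3 in 5 and Ckm in 2 of 9 cortex libraries).

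A single animal stood apart at Prnp, the prion protein gene, whose TSS (chr2:131909928) is among the bivalent promoters. H3K4me3 reads in its peak, in CPM of all reads in autosomal peaks, were 106 in that animal's cortex library and 463 to 597 in the other 8. In gastrocnemius they were 56.6 against 347 to 482 in the other 9, and H3K27ac showed the same order (57.9 against 281 to 388, and 56.7 against 316 to 544). H3K27me3 had no peak at Prnp in either tissue of that animal and one in every other library, so Prnp and the overlapping Prn met the rule only through the other animals. The sources used here name no promoter of the transgenes. Whether this animal carries them was not tested, reads of a transgene and of the gene itself cannot be told apart, and the main results are also given without its libraries (cortex 5 and gastrocnemius 6).

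Prnp and Prn were 2 of 7 bivalent promoters with over 10 H3K27me3 RPKM, while the median promoter had 4.80 in cortex and 4.83 in gastrocnemius. The others were Mir101c (126), Sfi1 (65.6), 2700054A10Rik (20.1), Ugt1a1 (14.5) and Hjurp (11.8). Mir101c was as dense in H3K4me3 (117). Whether repeated copies of these stretches add reads was not tested, and without the 7 the H3K27ac difference below was 11.7 in place of 11.5 points.

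The rule required a peak of each mark within 1 kb of the same TSS, and H3K27me3 peaks are wide, so overlap of the peaks is nearly set by the rule and is given as a description. In a cortex library, 97.1% to 99.1% of the bivalent promoters (median 98.3%) had both marks in a shared window of 200 bp, and in gastrocnemius 94.5% to 99.5% (median 98.2%). H3K27me3 formed the wider domain. Averaged over libraries, its peaks had a median width of 8.23 ± 1.10 kb in cortex (SD, n = 9) and 10.2 ± 3.84 kb in gastrocnemius (SD, n = 10), against 3.13 ± 0.224 and 3.18 ± 0.290 kb for H3K4me3.

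**Figure D1:**
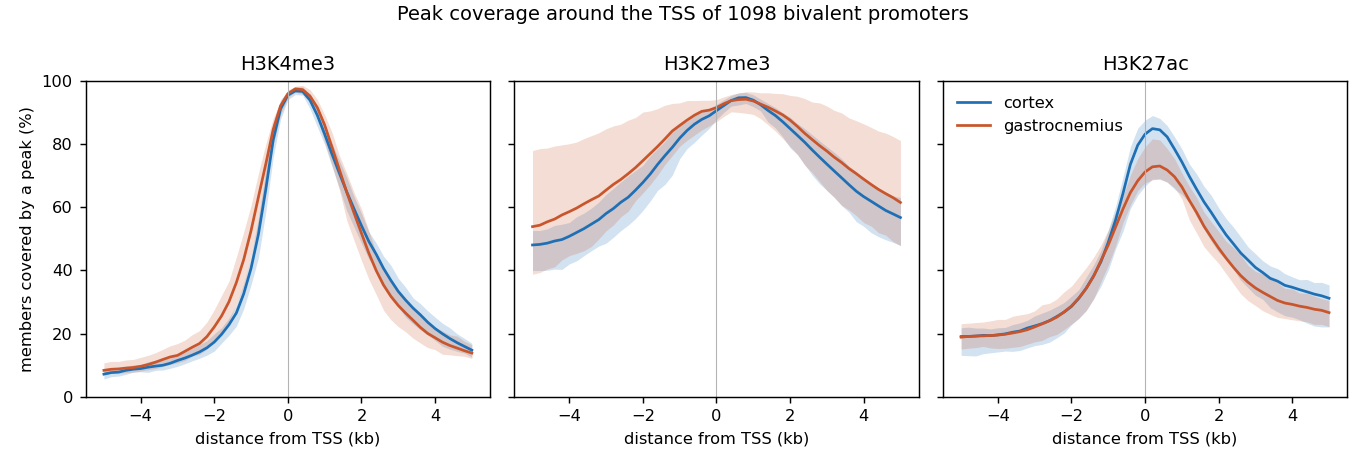
Share of the 1098 bivalent promoters covered by a peak (y axis, percent) against the distance from the TSS (x axis, kb, positive into the gene), 1 panel per mark. Lines are means over the 9 cortex and 10 gastrocnemius libraries and bands run from the lowest to the highest library. H3K4me3 covered 95.5% of TSSs in cortex and 96% in gastrocnemius. Its coverage fell more steeply upstream (40.7% and 52.7% at -1 kb) than into the gene (83.2% and 86.1% at 1 kb). H3K27me3 was broader, and H3K27ac covered 83.2% of TSSs in cortex and 71.2% in gastrocnemius.

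For neither mark was the difference in width between tissues significant. For H3K27me3, the library medians ran from 6.2 through 8.4 to 9.8 kb in cortex and from 6.4 through 9.5 to 19.5 kb in gastrocnemius (difference -1.98 kb, exact two-sided permutation p = 0.146, adjusted 0.293). The libraries of the tissues overlapped, and the highest value was that of gastrocnemius 5, which also had the most H3K27me3 reads (18.2 M) and without which the difference was -0.944 kb. For H3K4me3, widths were 2.8 to 3.4 kb in cortex and 2.8 to 3.6 kb in gastrocnemius (exact permutation p = 0.727), whereas at the other promoters H3K4me3 peaks were narrower in cortex (2.91 ± 0.203 against 3.84 ± 0.460 kb, SD, n = 9 and 10, exact permutation p = 7.58e-05).

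Of the bivalent genes, 203 (18.5%) belonged to at least 1 of the role lists compiled for these data, as did 2.85% of all genes. The 12 lists of developmental transcription factors and signalling genes held 167 of them (15.2%, against 1.67% of all genes). Among transcription factors, 27 of 44 developmental zinc finger genes were bivalent in both tissues, as were 13 of 26 forkhead, 44 of 94 homeobox genes outside the Hox clusters, 14 of 31 SOX and T-box, 5 of 14 PAX and GATA and 15 of 50 bHLH genes. Among signalling genes the counts were 9 of 19 Wnt ligands, 9 of 27 Wnt receptors and inhibitors, 15 of 36 BMP ligands and inhibitors, 8 of 18 Hedgehog and Notch genes and 5 of 20 FGF ligands. The counts were 19 of 63 for potassium channels, 5 of 37 for glutamate and GABA receptor genes and 3 of 35 for synaptic vesicle and scaffold genes. No gene of the lists of 40 sarcomere and 50 ribosomal protein genes was included.

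Hox genes were mostly outside the group although H3K27me3 covered them. All 39 annotated Hox genes met the H3K27me3 rule in cortex and 26 met it in gastrocnemius, but H3K4me3 was called in all 19 libraries at only 4. Hoxd1 and Hoxd9 were among those that met both rules. Of 40 Polycomb and Trithorax genes, 4 (10%) were bivalent in both tissues, against 8.18% of all promoters with H3K4me3 in all 19 libraries, and 27 had H3K4me3 without H3K27me3. Among the 4 were Cbx2 and Cbx8, which encode chromodomain subunits that bind H3K27me3, and Epop, a partner of the H3K27 methyltransferase complex.

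**Figure D2:**
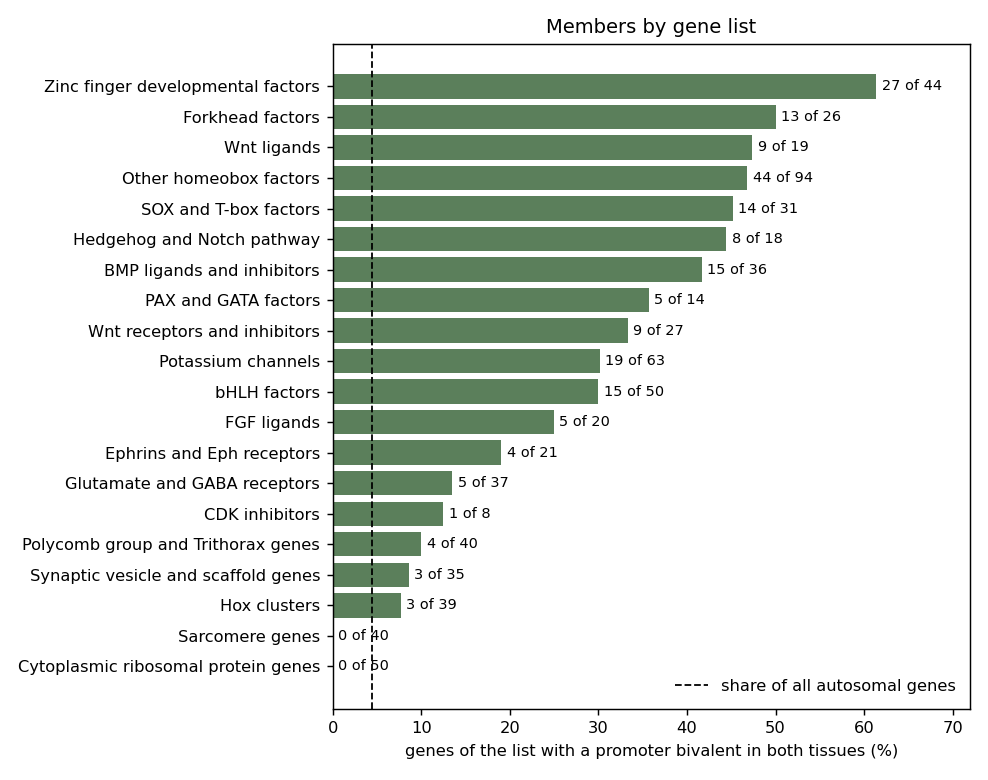
Percent of the annotated autosomal genes of each role list whose promoter was bivalent in both tissues (bars, with counts), with the share among all autosomal genes as a dashed line (4.40%). Developmental zinc finger genes stood highest (27 of 44) and the sarcomere and ribosomal protein lists held none.

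H3K27ac was not used to choose the promoters, and it was called at most of them. The share of bivalent promoters with an H3K27ac peak was 71.5% in the lowest cortex library, 89.3% in the median and 90.5% in the highest, and 71.2%, 75.3% and 85.1% in gastrocnemius. Except for cortex 9, the shallowest H3K27ac library (3.90 M reads), every cortex library stood at or above the highest gastrocnemius library. The means were 87.2 ± 6.13% (SD, n = 9) and 75.7 ± 4.11% (SD, n = 10), a difference of 11.5 percentage points (exact two-sided permutation of tissue labels, p = 0.00066). Autosomal H3K27ac peaks per library numbered 45891 to 74382 in cortex and 46028 to 67089 in gastrocnemius. Cortex 9, lowest in share, had the fewest peaks of its tissue, and gastrocnemius 9, highest in share, had the most of its tissue. The share over all promoters was not compared between tissues, so the difference is not shown to be particular to bivalent promoters.

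The size of that difference depended on the libraries and on the peak threshold. Without cortex 9 it was 13.5 points. Among libraries whose deposited name has no run number it was 15.8 points (exact permutation p = 0.000583), and between the 2 cortex and 4 gastrocnemius libraries with one it was 1.55 points (exact permutation p = 0.933, where the smallest p this design allows is 0.0667). No source used here says what the number stands for. In these 6 libraries the shares were 90.3% in cortex 8 and 71.5% in cortex 9, the shallow library, and 79.2%, 76%, 85.1% and 77% in gastrocnemius 5, 6, 9 and 10, so that 1 cortex library stood above and 1 below all 4 gastrocnemius libraries. With equally many top-scoring peaks per library it shrank to 4.22 points (exact permutation p = 0.0137), and without the 25% of peaks with the lowest scores it was 17.8 points (p = 0.000184, exact permutation).

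Compared with other promoter classes, the bivalent promoters lay between the active and the repressed ones. H3K27ac was called at 99.5% of promoters with H3K4me3 and no H3K27me3 in cortex (12.3 points above the bivalent ones) and at 99.6% in gastrocnemius (23.9 points above). Where H3K27me3 stood without H3K4me3, the shares were only 12.7% and 7.81%, which was 74.6 and 67.9 points below. Every library showed these directions, and each exact sign-flip test gave the smallest p it can give (p = 0.00391 with 9 cortex and p = 0.00195 with 10 gastrocnemius libraries, adjusted p = 0.00391 over 8 tests).

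Promoters that were bivalent in 1 tissue only gave the same order within that tissue. At 194 promoters with H3K27me3 in cortex and in at most 1 gastrocnemius library, H3K27ac was called in 93.4% in cortex, 6.11 points above the promoters bivalent in both tissues, and in 99.8% in gastrocnemius. At the 585 promoters of the reverse kind it was called in 81.1% in gastrocnemius, 5.40 points above, and in 99.8% in cortex (adjusted p = 0.00391 for each exact sign-flip test). Both within-tissue gaps shrank without the 25% lowest-scoring peaks, to 2.02 and 1.35 points, as did the cortex gap to promoters with H3K4me3 and no H3K27me3 (6.45 points). With equally many top-scoring peaks the gastrocnemius gap was 3.12 points.

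**Figure D3:**
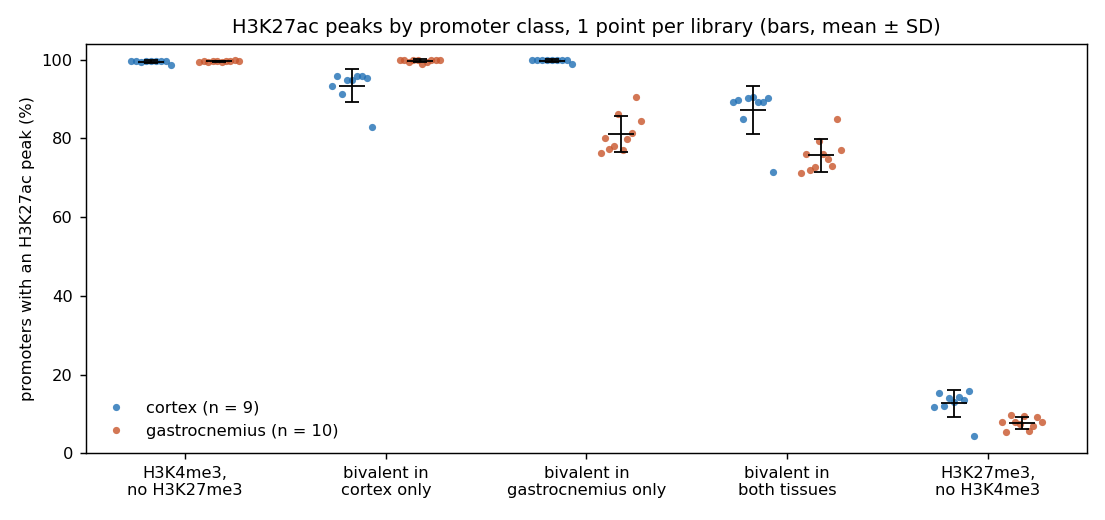
Percent of the promoters of each class with an H3K27ac peak (y axis), 1 point per library, with the mean and SD as bars, for 9 cortex and 10 gastrocnemius libraries. Promoters bivalent in both tissues averaged 87.2% in cortex and 75.7% in gastrocnemius, below the promoters with H3K4me3 alone and far above those with H3K27me3 alone. The single low cortex point (71.5%) is cortex 9.

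Promoter by promoter, H3K27ac was called in all 19 libraries at 520 bivalent promoters (47.4%, against 51.9% of all genes and 90.2% of promoters with H3K4me3 in all libraries) and in none at 16 (1.46%, against 25.6% and 0.164%). Fisher's exact test on the number of libraries with a peak called 188 of the 1082 testable bivalent promoters higher in cortex (17.4%, background 9.28% of all promoters tested) and 58 higher in gastrocnemius (5.36%, background 4.29%) at a false discovery rate of 0.1. Without the animal that stood apart at Prnp the counts were 173 and 49.

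A peak in every cortex and in no gastrocnemius library was found at 67 bivalent promoters (background 3.13% of all genes). Those with the highest H3K27ac included Sox2, a factor of neural stem cells, Dlx5, Dlx6 and the antisense transcript Dlx6os2, a locus of inhibitory interneuron development, Cdk5r2, a neuronal activator of the kinase Cdk5, and the transcripts 2810405F15Rik, 9530059O14Rik and Gm3134. The reverse pattern was found at 16 (background 1.17%). Of these, Hoxd9 and En1 are homeobox genes of body axis and limb patterning, Sim2 is a bHLH-PAS factor, Gata3 and Osr2 are developmental zinc finger factors, and Grb10 is an imprinted adapter of growth factor receptors. For each of these promoters the adjusted p was 0.000187 (Fisher's exact test, 9 of 9 against 0 of 10 libraries or the reverse).

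The 16 promoters with no H3K27ac peak in any library included Sim1, Foxd4, Foxb2, Nkx6-1 and Atoh1, transcription factors of hypothalamus, hindbrain, spinal cord and inner ear development, and the transcript 5730488B01Rik. Their H3K27me3 peaks were wide, with a median of 24.8 kb in cortex and 22.4 kb in gastrocnemius, against 7.64 and 9.19 kb at the promoters with H3K27ac in all libraries. Their H3K4me3 was sparse, with 3.58 and 3.80 RPKM against 10.9 and 9.52.

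The read counts of the marks were then compared between tissues by edgeR's quasi-likelihood test at promoters with a peak in all 19 libraries, with adjustment over all such promoters. Values are TMM-normalised CPM of the reads at the promoters tested, and they count the whole peak, which reaches beyond the promoter. For H3K4me3, 525 of 1098 bivalent promoters were higher in cortex (47.8%, background 38.2%), 435 were higher in gastrocnemius (39.6%, background 40.2%) and 138 were not called. The libraries of the tissues did not overlap at 637 of them (58.0%, background 40.0%). For H3K27ac, 234 of the 520 testable promoters were higher in cortex (45.0%, background 34.2%) and 161 in gastrocnemius (31.0%, background 38.2%), with no overlap at 197 (37.9%, background 30.0%).

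Calls were fewer for H3K27me3. Of 846 promoters, 207 were higher in cortex (24.5%, background 23.5%), 292 in gastrocnemius (34.5%, background 32.5%) and 347 were not called, with no overlap at 108 (12.8%, background 11.4%), so these shares were close to those of all promoters with the mark. The spread between libraries was also largest for this mark, with a median biological coefficient of variation of 0.334 against 0.0771 for H3K4me3 and 0.208 for H3K27ac. Among called differences, those of over 2-fold numbered 307 for H3K4me3 higher in cortex (28.0% of the bivalent promoters tested, background 9.08% of all promoters tested) and 199 higher in gastrocnemius (18.1%, background 7.65%). For H3K27ac they numbered 141 (27.1%, background 11.2%) and 86 (16.5%, background 15.8%), and for H3K27me3 62 (7.33%, background 7.45%) and 123 (14.5%, background 14.3%). The median log2 difference, cortex over gastrocnemius, was 0.12 for H3K4me3 (-0.01 over all promoters), 0.21 for H3K27ac (-0.05) and -0.08 for H3K27me3 (-0.08).

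Among neuronal genes, Cacna1e, which encodes the pore subunit of R-type calcium channels, had 132, 145 and 150 H3K4me3 CPM in the lowest, median and highest cortex library and 3.25, 4.86 and 7.51 in gastrocnemius. The tissues did not overlap, and the log2 difference was 4.85 ± 0.13 (SE, adjusted p = 7.78e-18, edgeR). H3K27me3 at Cacna1e went the other way, from 106, 134 and 158 in cortex to 246, 446 and 532 in gastrocnemius (log2 -1.68 ± 0.17, adjusted p = 5.06e-08, edgeR), again with no overlap.

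Elfn2, a leucine-rich repeat protein of synapses, had 157, 175 and 187 H3K4me3 CPM in cortex and 4.03, 6.47 and 8.54 in gastrocnemius (log2 4.73 ± 0.11, adjusted p = 1.5e-18, edgeR). Its H3K27me3 was 61.9, 79.3 and 129 in cortex and 391, 868 and 1438 in gastrocnemius (log2 -3.30 ± 0.26, adjusted p = 2.12e-09, edgeR). Neither mark overlapped between the tissues at Elfn2. Crtac1, a secreted matrix protein, had the largest H3K27me3 difference in this direction, with 68.7, 102 and 218 CPM in cortex and 349, 1141 and 1889 in gastrocnemius (log2 -3.31 ± 0.30, edgeR), while its H3K4me3 was 49.3 to 70.5 in cortex and 7.24 to 10.8 in gastrocnemius.

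Cdk5r2 had 131, 158 and 168 H3K4me3 CPM in cortex and 4.89, 7.24 and 14.5 in gastrocnemius (log2 4.26 ± 0.14, edgeR), and the background potassium channel Kcnk1 had 121, 135 and 145 against 4.13, 6.75 and 10.4. In both genes the cortex libraries stood far above the gastrocnemius libraries. The transcript 2810405F15Rik, next to Meis2, was also among the largest differences, but its cortex libraries ran from 20.3 to 416, so that the size of its difference (log2 4.35 ± 0.69) is poorly defined.

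The largest H3K27ac difference was at the precursor gene of the neural microRNA miR-9, Mir9-1, whose peaks are shared by Gm25641 and Mir3093. H3K27ac was 254, 439 and 538 CPM in cortex and 4.77, 7.11 and 9.93 in gastrocnemius (log2 5.94 ± 0.17, adjusted p = 8.46e-16, edgeR), with no overlap. H3K4me3 at Mir9-1 was also higher in cortex (168 to 303 against 14.8 to 24.1) and H3K27me3 was lower (57.4 to 525 against 1078 to 2707, log2 -3.05 ± 0.35). Adcyap1r1, a receptor of the neuropeptide PACAP, and Kcnj4, an inward rectifier potassium channel, followed for H3K27ac, with 160 to 326 against 4.42 to 14.1 and 177 to 355 against 7.82 to 22.7 CPM.

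In the direction of muscle, En1 was among the largest H3K4me3 differences. Its H3K4me3 averaged 6.52 ± 1.38 CPM in cortex (SD, n = 9) and 110.4 ± 33.1 in gastrocnemius (SD, n = 10), with a log2 difference of -4.08 ± 0.19 (SE, adjusted p = 8.96e-14, edgeR). The tissues did not overlap at En1. H3K27ac differed most at Fgd5 (11.7 to 16.8 in cortex, 59.9 to 355 in gastrocnemius) and Dll4 (25.4 to 65.3 against 134 to 565), genes of endothelial cells, at Tcf15 (3.98 to 15.8 against 90.4 to 137), a bHLH factor of somites, and at Slfn5 (7.06 to 11.3 against 65.0 to 144), an interferon-induced gene.

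Sim2 had the largest H3K27me3 excess in cortex among called promoters without overlap, with 1457, 1672 and 2574 CPM in cortex and 85.8, 323 and 699 in gastrocnemius (log2 2.45 ± 0.32, adjusted p = 2.49e-06, edgeR). Its H3K4me3 went the other way, with 3.64, 6.19 and 10.2 in cortex and 60.8, 85.1 and 103 in gastrocnemius. The tissues overlapped in neither mark. Dmrt2, a factor of somite development, had 733 to 1470 H3K27me3 CPM in cortex and 78.3 to 311 in gastrocnemius. At Hoxd9, whose promoter sequence is printed above, H3K27me3 was 2323, 4971 and 5721 in cortex and 180, 1400 and 2287 in gastrocnemius (log2 1.88 ± 0.43, adjusted p = 0.00112, edgeR), a difference without overlap but with a wide spread in muscle.

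Tbx3, a T-box factor of limb development, was measured in all libraries for all 3 marks. H3K4me3 was 48.2 to 58.2 CPM in cortex and 127 to 190 in gastrocnemius, H3K27ac was 18.1 to 33.6 against 81.2 to 115, and H3K27me3 was 1533 to 3048 against 124 to 890. No mark overlapped between the tissues at Tbx3.

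The size of these differences depends on peak width, since a count belongs to a whole peak and reads cannot be placed within it. When each count was spread evenly over its peak and only the share within 2.5 kb of the TSS was kept, the log2 difference was 3.93 in place of 4.85 for H3K4me3 at Cacna1e, 2.43 in place of 5.94 for H3K27ac at Mir9-1, 0.80 in place of 2.45 for H3K27me3 at Sim2 and -1.11 in place of -3.30 for H3K27me3 at Elfn2. The promoters with the largest differences of each mark kept their direction and their call in this and all other settings tried for them (12 in all).

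**Figure D4:**
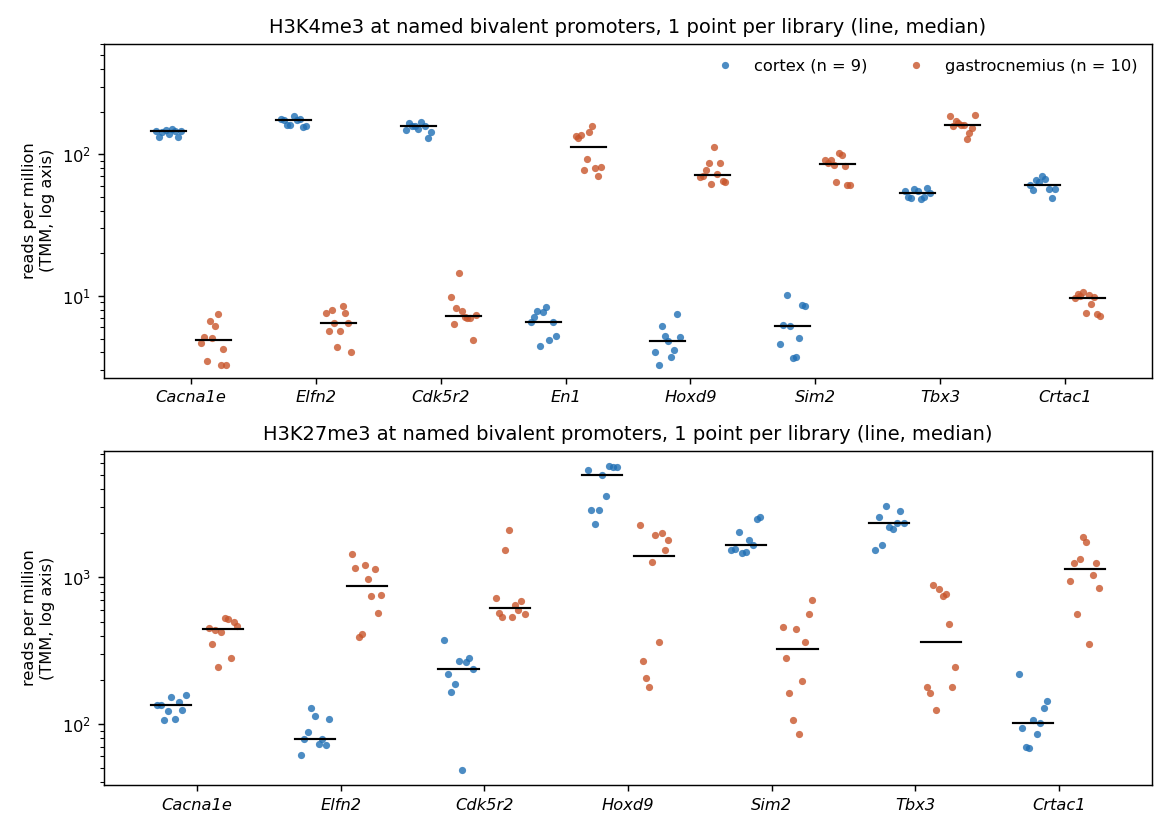
H3K4me3 (upper panel) and H3K27me3 (lower panel) in TMM-normalised CPM (y axis, log scale) at named bivalent promoters (x axis), 1 point per library and a line at the median, for 9 cortex and 10 gastrocnemius libraries. At Cacna1e, Elfn2, Cdk5r2 and Crtac1 cortex was higher in H3K4me3 and lower in H3K27me3, and at Hoxd9, Sim2 and Tbx3 the order was the reverse. En1 appears only in the upper panel because H3K27me3 was not called there in all libraries.

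The 846 promoters tested for both H3K4me3 and H3K27me3 are all bivalent by the rule, so no other promoters can be set beside them. Of 410 promoters with more H3K4me3 in cortex, 223 (54.4%) had more H3K27me3 in gastrocnemius and 29 (7.07%) in cortex. Of 332 with more H3K4me3 in gastrocnemius, 147 (44.3%) had more H3K27me3 in cortex and 50 (15.1%) in gastrocnemius. Spearman's correlation of the log2 differences across these promoters was -0.59, and -0.63 when the same counts were spread evenly over the peaks and the share within 2.5 kb of the TSS was kept. Between H3K4me3 and H3K27ac it was 0.84 over the 520 bivalent promoters tested for both and 0.62 over the 11580 other promoters tested for both, and between H3K27me3 and H3K27ac -0.48 over 370. These correlations are descriptions across promoters of the same tissue samples, which are not independent replicates.

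**Figure D5:**
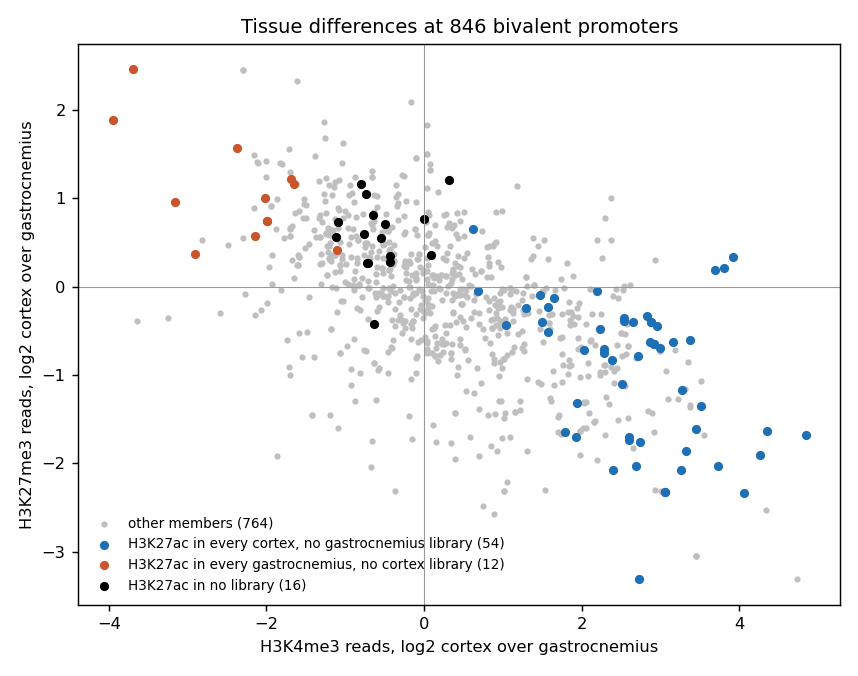
Log2 difference, cortex over gastrocnemius, of H3K4me3 reads (x axis) and H3K27me3 reads (y axis) at the 846 bivalent promoters with H3K27me3 in all 19 libraries, 1 point per promoter. Points with H3K27ac in every cortex and no gastrocnemius library (54) lie at the right and mostly below 0, those with the reverse pattern (12) at the upper left, and those with no H3K27ac peak (16) mostly at the upper left near the centre. Spearman's correlation over all points is -0.59.

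The promoters with H3K27ac in a single tissue were then read for the other marks, beside the other promoters with the same H3K27ac pattern. All 67 bivalent promoters with H3K27ac in every cortex and no gastrocnemius library had more H3K4me3 in cortex, as did all 80 others tested. Of the 54 tested for H3K27me3, 40 (74.1%) had more of it in gastrocnemius and 1 in cortex, against 127 (66.8%) and 2 of 190 others. All 16 of the reverse pattern had more H3K4me3 in gastrocnemius, as did 8 of 9 others, and 10 of 12 had more H3K27me3 in cortex, as did 25 of 28 others. Of the 16 bivalent promoters without any H3K27ac peak, 13 had more H3K4me3 in gastrocnemius and 1 in cortex, against 1 and 1 of 6 others. For H3K27me3, 11 of these 16 (68.8%) had more in cortex and 1 in gastrocnemius, against 127 (28.9%) and 81 of 440 others. The differences between bivalent and other promoters were not tested.

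The calls are given next by gene family, to be read against all promoters tested, of which 38.2% were higher in cortex and 40.2% in gastrocnemius for H3K4me3, 34.2% and 38.2% for H3K27ac, and 23.5% and 32.5% for H3K27me3. Differences between families, many of them small, were not tested. In the homeobox list outside the Hox clusters, H3K4me3 was higher in cortex at 14 of 44 bivalent promoters and higher in gastrocnemius at 26 (median log2 -0.44, against 0.12 over all bivalent promoters), and H3K27me3 was higher in cortex at 18 of 41 and in gastrocnemius at 4. At Lhx1, H3K4me3 was 5.71 to 17.6 CPM in cortex and 23.8 to 43.2 in gastrocnemius, and H3K27me3 was 1011 to 1790 against 933 to 1522 and was not called (adjusted p = 0.184, edgeR). Gbx2, a factor of the midbrain and hindbrain boundary, was called for both marks, with H3K4me3 at 4.78 to 13.2 against 13.5 to 37.2 and H3K27me3 at 1166 to 2201 against 699 to 1067.

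All 5 PAX and GATA promoters were higher in gastrocnemius for H3K4me3 and higher in cortex for H3K27me3. Gata3 had 4.66, 8.95 and 11.2 H3K4me3 CPM in cortex and 50.5, 74.6 and 107 in gastrocnemius, without overlap. Gata2, whose sequence is printed above, had 55.6, 67.6 and 74.6 against 14.3, 168 and 202, where the tissues overlapped because of a single low muscle library (log2 -1.21, adjusted p = 0.000457, edgeR). H3K27me3 at Gata6, a factor of heart and gut development, was 694 to 1064 in cortex and 368 to 649 in gastrocnemius, and at Pax9, a factor of pharyngeal pouch and tooth development, 1335 to 1740 and 642 to 1060.

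Of the forkhead genes, 7 of 13 had more H3K4me3 in gastrocnemius and 2 more in cortex, and H3K27ac was higher in cortex at 5 of the 6 tested and in gastrocnemius at none. Of the SOX and T-box genes, 9 of 14 had more H3K4me3 in gastrocnemius and 4 more in cortex. Sox2 was among the latter, with 81.5, 131 and 196 H3K4me3 CPM in cortex and 10.1, 11.3 and 16.4 in gastrocnemius (log2 3.45, adjusted p = 1.7e-13, edgeR), although its H3K27me3 libraries overlapped (94.2 to 1075 in cortex, 614 to 1618 in gastrocnemius). Of the zinc finger genes 15 of 27 were higher in cortex and 9 higher in gastrocnemius, and the bHLH genes were 7 and 8 of 15. Neurod2, a bHLH factor of cortical neurons, was higher in cortex in H3K4me3 (41.6 to 97.8 against 12.7 to 19.8), while Hes2 was higher in gastrocnemius (5.33 to 6.99 against 8.67 to 16.5).

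Of the signalling lists, 7 of 9 Wnt receptors and inhibitors had more H3K4me3 in cortex and none had more in gastrocnemius, and the Wnt ligands were split 4 to 4 of 9. Sfrp2, a secreted inhibitor that binds Wnt proteins, had 13.2 to 23.4 H3K4me3 CPM in cortex and 3.78 to 6.83 in gastrocnemius, and Lef1, the nuclear partner of beta-catenin, 49.2 to 76.5 and 27.8 to 43.5. For Wnt10b the values were low in both tissues, with 3.05 to 7.52 against 6.80 to 21.0. In the Hedgehog and Notch list 6 of 8 were higher in gastrocnemius, among them the endothelial Notch receptor Notch4 (5.81 to 9.48 against 20.5 to 40.2). In the BMP list 4 of 15 were higher in cortex and 7 in gastrocnemius.

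Of the potassium channels, 13 of 19 had more H3K4me3 in cortex and 6 in gastrocnemius, with a median log2 difference of 1.74. Kcnh3 had 70.8, 81.8 and 98.3 H3K4me3 CPM in cortex and 24.3, 30.3 and 33.3 in gastrocnemius, with H3K27ac at 71.2 to 193 against 12.5 to 21.4, both without overlap. Its H3K27me3 libraries overlapped (205 to 487 against 297 to 720). In the glutamate and GABA receptor list 4 of 5 were higher in cortex, such as the metabotropic glutamate receptor Grm4 (49.3 to 84.6 against 7.06 to 15.2). All 3 synaptic genes were higher in cortex, among them Sv2b, a synaptic vesicle protein (62.7 to 108 against 4.57 to 8.70).

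Of the 4 Polycomb genes, 2 were higher in cortex in H3K4me3, Epop among them, and Cbx2 and Cbx8 were not called. Epop had 37.5 to 63.8 H3K4me3 CPM in cortex and 22.1 to 34 in gastrocnemius (log2 0.92 ± 0.11, edgeR), and its H3K27me3 was lower in cortex (51.0 to 167 against 166 to 435). The libraries of the tissues overlapped in the second of these marks only. Cbx8 had 60.9 to 70.8 H3K4me3 CPM in cortex and 59.4 to 77.0 in gastrocnemius, with H3K27me3 at 906 to 1165 against 613 to 1409, and neither was called. Cbx2 had 47.6 to 58.2 against 47.2 to 61.5 for H3K4me3 (adjusted p = 0.747, edgeR). At Cdkn2a, a cell cycle inhibitor that Polycomb complexes are known to repress, H3K4me3 was 47.1 to 55.3 against 46.2 to 61.7 (adjusted p = 0.122), while H3K27me3 was 254, 898 and 1602 in cortex and 117, 267 and 680 in gastrocnemius (log2 1.46, adjusted p = 0.000735, edgeR), with overlapping libraries. All 4 Polycomb promoters and that of Cdkn2a had H3K27ac in all 19 libraries.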

How the data were processed

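Chromatin immunoprecipitation and sequencing of H3K4me3, H3K27ac and H3K27me3 was done in brain cortex and gastrocnemius of PSAPP mice. Alignment to mm10 with BWA, filtering with SAMtools and peak calling with epic2 in each library were done by the authors. No source used here gives the epic2 version. A larger gap was allowed for H3K27me3 and no input column is in the files. The deposited peak lists give a read count and a score for each peak, and both are as the authors' peak caller wrote them. Reads outside peaks are not among these values, so an uncalled promoter has no reads.

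Groups were taken from the labels. Each gene was placed at its most upstream RefSeq TSS on the autosomes, and a peak within 1 kb counted as called. Members and gene lists were chosen with earlier results of these data known. Shares of promoters were compared between classes within libraries by exact two-sided sign-flip tests with Benjamini-Hochberg adjustment over 8 tests, and between tissues by exact permutation of the 9 cortex and 10 gastrocnemius labels. H3K27ac calls per promoter were tested by Fisher's exact test. The deposited read counts at promoters called in all 19 libraries were tested by edgeR's quasi-likelihood test (edgeR 4.0.16, limma 3.58.1, R 4.3.3) with TMM normalisation, adjusted over all such promoters at a false discovery rate of 0.1. The SE of a log2 difference is its size divided by the square root of the F statistic. DESeq2 1.42.0 was an alternative. Other steps used Python 3.11.15, numpy 2.4.6, pandas 2.3.3, scipy 1.17.1 and pysam 0.24.0, and the tests were checked on simulated data.

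Named genes were the members with the densest H3K27me3 of each list, the largest increases and decreases of each mark among called members whose tissues did not overlap, and the members with the most H3K27ac or H3K27me3 for each pattern of H3K27ac calls. Depth was the total read count in autosomal peaks, from 2.99 to 27 M, and intervals from replicates cover the spread between animals. Alternatives were the distance to the TSS, peak thresholds, normalisation, filters, peak counts spread evenly over the peak with the share near the TSS kept, blocks for replicate number or animal, the run number and left-out libraries. The alternatives without the animal that stood apart at Prnp, without the 7 densest members, with only the libraries with a run number and with close neighbours taken once were chosen after seeing the data.

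Replicate numbers in the titles pair the same animal across tissues only for part of the libraries, while animal codes in the deposited names pair 9 animals. Deviations of paired libraries from their group means were nearly unrelated, with correlations of -0.0678 to 0.141 for the same animal. Some promoters that the rule names are not reported here.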

Additional observations from a re-analysis of the deposited data

Results flagged for a closer look

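Of 52 groups of libraries examined away from Prnp, 4 held a library whose gap to the nearest other library was large for the range of the group, where chance gives about 1 in 20. The groups covered H3K27ac and H3K27me3 shares, H3K4me3 and H3K27me3 widths, and reads of the promoters with the largest differences of each mark. Reads were examined only for the mark in which a promoter ranked, so H3K4me3 at Mir9-1 and Gata2 was not examined. Cortex 9 had the lowest share of bivalent promoters with H3K27ac (71.5%), and gastrocnemius 5 the widest H3K27me3 peaks (19.5 kb). Gastrocnemius 4 was highest for H3K4me3 at Cdk5r2 (14.5 CPM), and cortex 1 for H3K27me3 at Crtac1 (218 CPM). The 4 groups at Prnp were examined because 1 animal had been seen to stand apart there, so they are given as values only. All 4 held such a library, that of this animal, with 106 and 56.6 H3K4me3 CPM of the reads in autosomal peaks in cortex 5 and gastrocnemius 6, and 57.9 and 56.7 H3K27ac CPM.

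The signed gap in H3K27ac share, bivalent promoters minus another class, was also set against itself between the tissues. Against promoters with H3K4me3 and no H3K27me3 it was -12.3 points in cortex and -23.9 in gastrocnemius (cortex minus gastrocnemius 11.6), but that class stood at 99.5% and 99.6%, so this restates the tissue difference of the bivalent promoters themselves. Against promoters bivalent in cortex only it was -6.11 and -24.1 points (difference 18), and against those bivalent in gastrocnemius only -12.5 and -5.40 points (difference -7.12). Both classes were chosen for lacking H3K27me3 in the other tissue, where H3K27ac was called at 99.8% of them, so the directions are given as descriptions. Against promoters with H3K27me3 and no H3K4me3 the gap was 74.6 and 67.9 points (difference 6.66, adjusted exact permutation p = 0.00192), with that class at 12.7% and 7.81%.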

How the results depend on the processing

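The number of bivalent promoters ranged from 629 without the 25% lowest-scoring peaks to 1385 with peaks within a wider distance of the TSS. The difference in H3K4me3 width changed sign without the lowest-scoring peaks (0.0733 kb, exact permutation p = 0.638) without the animal that stood apart at Prnp (0.0167 kb, exact permutation p = 1) and among the libraries with a run number in their deposited name (0.1 kb, exact permutation p = 0.8), and that in H3K27me3 width among libraries without a run number (0.281 kb, exact permutation p = 0.714). Without a filter, with uncalled promoters at 0 reads, H3K27ac was higher in cortex at 519 and in gastrocnemius at 275 bivalent promoters, in place of 234 and 161. Among the 2 cortex and 4 gastrocnemius libraries with a run number, chosen after seeing the data, the H3K27ac difference was 1.55 points (exact permutation p = 0.933, the smallest possible being 0.0667). The causes were not tested. With 1 library left out at a time, the H3K27ac difference between tissues was 11.0 to 13.5 points, that in H3K4me3 width -0.0889 to 0 kb and that in H3K27me3 width -2.40 to -0.944 kb. The other 288 values recomputed for the comparisons kept their direction and their side of the threshold, or stayed within 1.5 times for counts, and so did the 360 recomputed for named promoters.

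With the replicate block the H3K27ac difference was 11.7 points (exact sign-flip p = 0.0195), and 521 and 430 bivalent promoters were called for H3K4me3, 249 and 151 for H3K27ac and 199 and 278 for H3K27me3, higher in cortex and in gastrocnemius. With animals as the pairing it was 11.9 points (exact sign-flip p = 0.0117). Neither block changed a call of a comparison. Without the animal that stood apart at Prnp the H3K27ac difference was 11.2 points (exact permutation p = 0.00202), and the counts were 515 and 435, 237 and 156, and 202 and 276.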
